A study of Mus musculus with 14 samples.

Results

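The regions described here were the gene bodies of the numbered zinc finger protein genes of the mouse, those whose symbol is Zfp followed by a number. They were taken by symbol from the authors' deposited table of gene-body chromatin scores, with 1 symbol left out by the rule, which gave 358 of 22470 gene bodies. Of these, 353 also had a row in the RNA table, and the symbols of the other 5 did not match one. The rule itself uses names and no measured value. The label zinc finger rests on the gene names, since the protein sequences were not analysed here.

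The study used mouse tumor-derived cells of strain C57BL/6 at passages 6 to 8, treated with a guide RNA that served as control (sgControl) or with 1 directed against Nsd3 (sgNSD3). Total RNA was sequenced in 3 samples per condition, and chromatin was profiled in 2 samples per condition for H3K36me2 (dimethylated lysine 36 of histone H3), 1 per condition for H3K27me3 (trimethylated lysine 27) and 1 per condition for IgG. The labels name neither the tumor type nor whether the cells were a clone or a pool, nor how Cas9 was supplied. They also do not say that separate cultures gave the 3 RNA samples of each condition, so p-values here reflect only the spread of these samples, possibly a technical one.

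Most numbered Zfp genes encode proteins with C2H2 zinc fingers, modules that read DNA sequence. The largest class also carries a KRAB domain, which recruits the corepressor Trim28 and, through it, the H3K9 methyltransferase Setdb1, and is known for silencing retroelements. Such genes arose by repeated tandem duplication and lie in runs of neighbours. A smaller class, such as Zfp36 and its relatives, has CCCH fingers that bind RNA. Nsd3 is a methyltransferase of H3K36, and H3K36me2 is known to hinder PRC2, the complex that deposits H3K27me3.

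Some of the members' promoters, 51 of the 293 listed, shared a sequence feature that the choice by name did not use. The motif was the word ACTACA followed, after any 2 bases, by the word TCCCA, which is the core of the site known to be bound by Zfp143 (itself a member). It was searched on both strands in the RefSeq promoter windows of GRCm38.p6, each 300 bases long from 250 before to 50 after a gene start. The windows printed here run from 12 bases before the motif to 25 after it, are read along the strand that holds the motif, and have the motif in capitals. Those of the run of Zfp genes on chromosome 13 are shown first because they show how much sequence the neighbours share beyond the motif.
Zfp712, chr13:67061203-67061252, plus strand: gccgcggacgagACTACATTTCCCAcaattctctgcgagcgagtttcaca
Zfp708, chr13:67081574-67081623, plus strand: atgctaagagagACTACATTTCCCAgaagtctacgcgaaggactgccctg
Zfp759, chr13:67128150-67128199, minus strand: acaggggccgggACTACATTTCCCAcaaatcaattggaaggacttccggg
Zfp455, chr13:67194424-67194473, minus strand: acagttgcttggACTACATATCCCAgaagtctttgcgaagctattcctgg
Zfp457, chr13:67306468-67306517, plus strand: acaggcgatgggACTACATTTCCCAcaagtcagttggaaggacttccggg
Zfp595, chr13:67332588-67332637, plus strand: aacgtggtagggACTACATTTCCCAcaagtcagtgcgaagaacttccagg
Zfp429, chr13:67399815-67399864, plus strand: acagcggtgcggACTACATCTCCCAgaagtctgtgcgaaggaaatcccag
Zfp456, chr13:67375809-67375858, plus strand: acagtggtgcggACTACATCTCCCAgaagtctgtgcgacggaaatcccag
Zfp874a, chr13:67451634-67451683, plus strand: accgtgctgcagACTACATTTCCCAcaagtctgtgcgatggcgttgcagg
Zfp874b, chr13:67484265-67484314, plus strand: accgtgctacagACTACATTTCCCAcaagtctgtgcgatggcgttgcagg
Zfp273, chr13:67813723-67813772, minus strand: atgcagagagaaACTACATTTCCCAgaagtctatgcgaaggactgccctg

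Windows from 2 runs on chromosome 7, from a run on chromosome 11 and from a promoter outside any run, that of Zfp691, are shown for contrast. Over these and the other windows outside the chromosome 13 run, pairs were less alike on the median, although some pairs were as close as pairs within that run.
Zfp108, chr7:24254700-24254749, minus strand: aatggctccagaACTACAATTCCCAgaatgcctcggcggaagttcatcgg
Zfp93, chr7:24270320-24270369, minus strand: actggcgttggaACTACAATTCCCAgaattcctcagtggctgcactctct
Zfp790, chr7:29815942-29815991, minus strand: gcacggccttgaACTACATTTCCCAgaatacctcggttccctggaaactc
Zfp940, chr7:29853662-29853711, plus strand: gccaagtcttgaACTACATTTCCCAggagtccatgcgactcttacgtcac
Zfp420, chr7:29859908-29859957, plus strand: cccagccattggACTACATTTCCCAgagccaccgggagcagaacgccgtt
Zfp566, chr7:30090549-30090598, minus strand: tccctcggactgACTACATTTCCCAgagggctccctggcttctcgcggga
Zfp354b, chr11:50931656-50931705, minus strand: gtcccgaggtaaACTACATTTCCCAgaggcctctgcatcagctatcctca
Zfp691, chr4:119174337-119174386, minus strand: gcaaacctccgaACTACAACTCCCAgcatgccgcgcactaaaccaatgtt

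Of the 293 members with a promoter in the RefSeq table, 51 (17.4%) held the motif, against 458 (1.69%) of all 27025 genes with a promoter and 366 (2.13%) of the 17199 protein-coding genes that were no member. Among related families named differently, 1 of 55 Zbtb, Zkscan and Zscan genes held it. A match is a description of these letters in this window and shows neither a bound site nor a cause of any value given here. This search was chosen after the files had been seen.

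The matches lay close to the gene start and mostly on the strand opposite to the gene. There were 56 matches in the promoters of the 51 members, 43 of them on the opposite strand and 13 on the strand of the gene. A site in the windows of more than 1 listed start of a gene was counted from each start. In all, 4 members had more than 1 match, and separate sites were not told apart from separate starts. The median first base lay 59.5 bases before the start, and 41 matches lay within 1 to 100 bases before it. The bases between the 2 words were TT in 24 of the 40 windows that could be written out at full length.

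**Figure D1:**
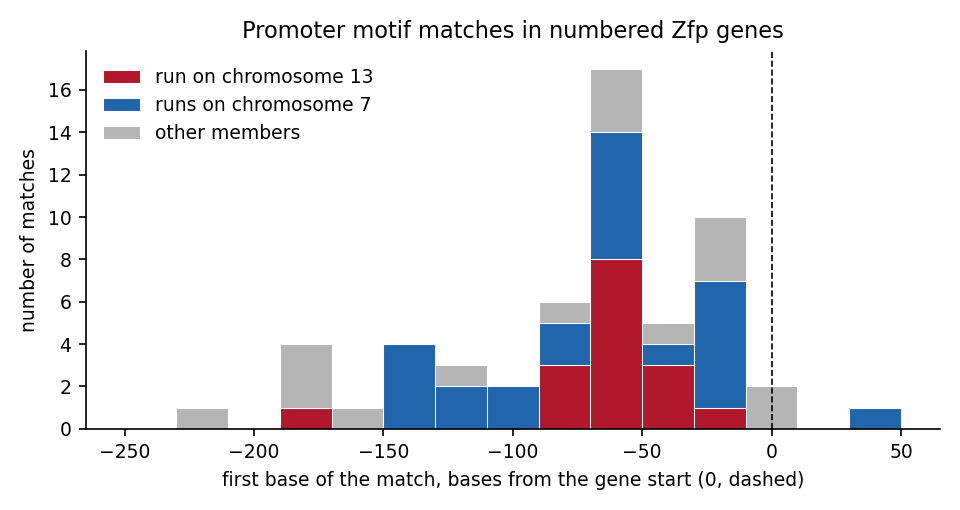
Number of motif matches (vertical axis) by the position of their first base from the gene start, in bases (horizontal axis, bins of 20 bases), for the run on chromosome 13, the runs on chromosome 7 and all other members. The matches gather before the start, with 41 of 56 within 1 to 100 bases of it. A site in the windows of more than 1 start of a gene is counted from each start.

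The motif was unevenly spread over the genome. A run was defined as at least 5 members on 1 chromosome whose starts followed each other within 500 kb, which gave 16 runs holding 151 members, with 201 members outside them and 6 without a RefSeq position. In runs, 41 of 134 promoters (30.6%) held the motif, and outside them 10 of 159 (6.29%). The run at chr13:66670274-67827000 had it in 16 of 18 promoters, the chromosome 7 run at chr7:29768552-30169775 in 9 of 13 and the one at chr7:24081877-25227876 in 6 of 11. By contrast, the run at chr17:21008941-23599755, which also had 20 members, held it in 0 of 18 promoters, and the second run of chromosome 17, at chr17:32765496-33631716, in 0 of 12. These promoters share ancestry and are not independent examples. Over the 16 windows of the chromosome 13 run, pairs were identical at 54% to 98% of the 50 bases, with a median of 68%. Zfp874a and Zfp874b were the closest pair at 98%, followed by Zfp429 and Zfp456 at 96% and by Zfp273 and Zfp708 at 92%. Over the 24 windows outside that run, pairs were identical at 34% to 74%, with a median of 48%, where the shared letters of the motif itself are included.

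Other promoter words were counted in the same windows. CCGGAAG, the core of ETS factor sites, stood in 64 of 293 member promoters (21.8%), against 9.93% of all genes and 12.8% of protein-coding genes that were no member. TATAAA, the TATA box, stood in 26 (8.87%), against 15.7% of all genes. GGGCGG, the GC box, stood in 142 (48.5%), against 38.2% of all genes but 49.2% of the other protein-coding genes. All were searched on both strands, none is contained in another, and whether matches of different words overlap was not examined.

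In RNA the libraries were of even depth but not of even likeness. Recovered totals were 20294828 to 21863833 counts, and levels are given as normalized counts, meaning reads recovered from the deposited log2 values and divided by a size factor per library. They are not corrected for gene length, so levels are not compared between genes. Per degree of freedom, the chi-square of the counts over genes was 1.33 to 1.45 between sgNSD3 libraries and 2.90 to 9.95 between sgControl libraries, with sgControl replicate 1 apart from the other two (6.62 and 9.95). Between libraries of different conditions it was 7.39 to 8.32. Replicates 1 and 3 of sgControl thus differed more than any pair across the conditions. Mesenchymal markers were high in all libraries, the epithelial marker Epcam and the immune markers Cd3e and Adgre1 were at 0, and several markers moved with the condition. By limma, Fn1 (306759 to 390444 normalized counts on average, adjusted p = 6.04e-08), Col1a1 (adjusted p = 0.00552) and Pdgfrb (adjusted p = 0.0223) were higher in sgNSD3, while Vim and Cdh2 were not called. The keratins Krt19 (3911 to 2676, adjusted p = 2.6e-10), Krt18 (305 to 234, adjusted p = 0.00192) and Krt14 (223 to 140, adjusted p = 0.000135) were lower, and Krt8 was not called. The part of these shifts in the members' values was not tested.

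The RNA of the targeted gene did not check the labels. Nsd3 was at 14568, 14402 and 14675 normalized counts in sgControl and at 21989, 22012 and 21837 in the libraries labelled sgNSD3, which was 1.51-fold higher there (limma adjusted p = 5.86e-14). These files hold no protein measurement. Every direction below is therefore that of the libraries labelled sgNSD3.

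The numbered Zfp genes as a group took nearly the same share of the RNA in both conditions. They made up 0.664%, 0.689% and 0.704% of the counts in sgControl and 0.676%, 0.680% and 0.676% in sgNSD3, so the conditions overlapped. In bulk samples, fewer cells of a type and less RNA per cell cannot be told apart. Of the 353 members with RNA, 13 were at 0 in every library, 36 (these 13 included) were under the minimum of 8 normalized counts on average, and 37 had 1000 or more. The 13 were Zfp352, Zfp366, Zfp36l3, Zfp42, Zfp534, Zfp616, Zfp640, Zfp648, Zfp663, Zfp683, Zfp735, Zfp831 and Zfp935. Zfp42, also known as Rex1, marks embryonic stem cells, and Zfp36l3 is an X-linked relative of Zfp36 known from placenta.

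Few members differed between the conditions, and those that did differed mostly by small amounts. Of the 317 members tested, 18 (5.68%) passed limma's test at an adjusted p of 0.05, where 11.9% of all 18263 tested genes did. There were 8 higher in sgNSD3 (2.52%, against 5.44% of all tested genes) and 10 lower (3.15%, against 6.44%). All tested genes include genes without a gene-body score. Of the 12298 other gene bodies with tested RNA, 789 were higher and 1021 lower. Small changes were not particular to the members, as the median absolute log2 fold was 0.291 in called members and 0.256 in all called genes. Over the 317 members the median log2 fold was -0.017, against 0.0007 over all tested genes and -0.011 over the other gene bodies with tested RNA. The mean was higher in sgNSD3 in 139 members and lower in 178, and the split over other genes is not given here. At an unadjusted limma p of 0.05, 66 members passed. The share of all tested genes at that threshold is not given here, so no count at an unadjusted p, here or below, is read as a result. Conditions did not overlap in 74 members (23.3%, against 28.5% of all tested genes), with sgNSD3 above in 28 (8.83%, against 14%) and below in 46 (14.5%, against 14.4%). Without sgControl replicate 1, 5 members were called higher and 10 lower. The counts of higher calls ranged from 3 without sgNSD3 replicate 2 to 13 without sgControl replicate 3, and those of lower calls from 5 without sgNSD3 replicate 3 to 12 without sgControl replicate 3.

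The lower share of called members was seen at each level of RNA. Members tested were divided into 4 classes of nearly equal number by their mean normalized counts, and all other gene bodies with tested RNA were placed in the same classes. From 8 to 77.8 counts, 4 of 79 members were called (5.06%), against 9.75% of other genes. From 77.8 to 183 counts it was 2 of 79 (2.53%) against 11.1%, from 183 to 503 counts 1 of 79 (1.27%) against 10.5%, and above 503 counts 11 of 80 (13.8%) against 19.6%. These shares are a description, with no test, because members of 1 run can share reads and ancestry.

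**Figure D2:**
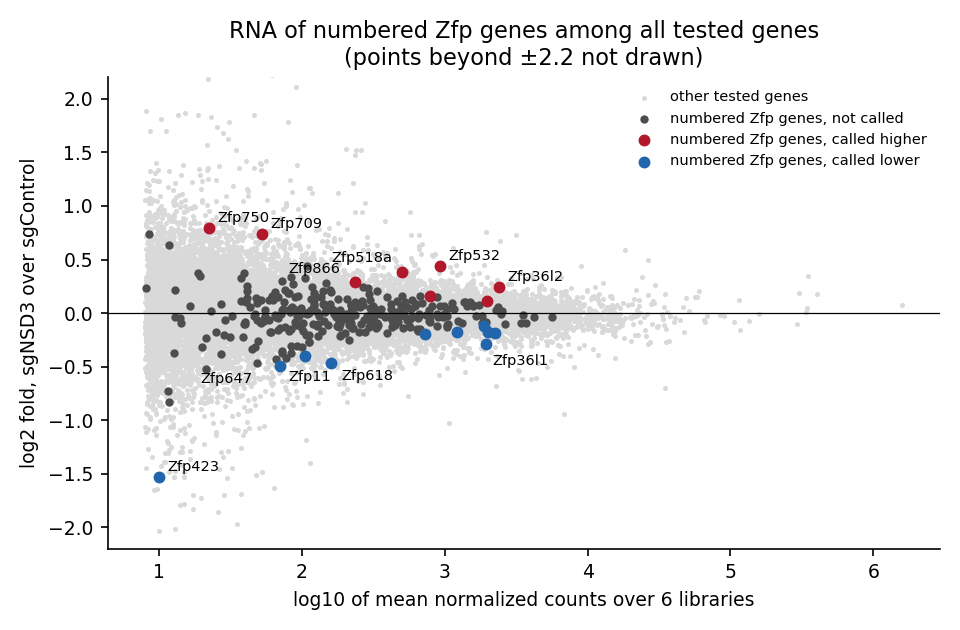
Log2 fold of sgNSD3 over sgControl (vertical axis, on log2 of normalized count plus 1) against the log10 of the mean normalized counts over the 6 libraries (horizontal axis), 1 point per tested gene. The 18 called members are coloured, and most of the 317 members lie near 0 among the other genes.

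The lists of members by role were drawn up with earlier results of these data known, and their counts stand beside the 11.9% called over all tested genes and the 19.6% among other genes above 503 normalized counts. With 6 to 23 tested genes a list, each call moves such a share by several percentage points, and nothing particular to a list is read from it.

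Among the RNA-binding members, the relatives Zfp36l1 and Zfp36l2 changed in opposite directions. Both encode CCCH proteins that bind AU-rich elements of mRNAs and promote their decay. Zfp36l1 was at 2181, 2102 and 2120 normalized counts in sgControl and at 1787, 1792 and 1667 in sgNSD3, a 1.22-fold fall (limma adjusted p = 6.49e-06). Zfp36l2 was at 2211, 2185 and 2206 in sgControl and at 2639, 2590 and 2568 in sgNSD3, a 1.18-fold rise (limma adjusted p = 1.49e-05). For neither gene did the conditions overlap. The ratio of Zfp36l2 to Zfp36l1 counts was 1.01, 1.04 and 1.04 in sgControl and 1.48, 1.45 and 1.54 in sgNSD3. The pairing of the 2 genes was chosen after their values had been seen, so the ratio carries no test. Zfp36 (tristetraprolin), the founding member of the family, was at 4077, 3886 and 3560 in sgControl and 3647, 3679 and 3485 in sgNSD3, with overlap (limma adjusted p = 0.143). Of the 8 tested members of the list of RNA-binding zinc fingers, these were the 1 higher and the 1 lower call. Zfp106, an RNA-binding protein with the most reads of any member, was at 5736 ± 21.0 in sgControl and 5591 ± 113 in sgNSD3 (SD, n = 3, limma adjusted p = 0.474).

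The members of chromatin complexes gave 2 higher calls and 1 lower call among the 10 tested of that list (30.0%), whose median level was 923 normalized counts. Zfp532, which associates with Zfp592, Zfp687 and Zmynd8, had the lowest adjusted p of all members. Its level was 799, 754 and 798 normalized counts in sgControl and 1025, 1072 and 1091 in sgNSD3, a 1.36-fold rise with a log2 fold of 0.44 ± 0.05 (SE, limma adjusted p = 3.27e-07). Its partners were not called, with Zfp592 at 964 ± 23.0 and 1011 ± 48.0 and Zfp687 at 989 ± 57.0 and 965 ± 28.8 in sgControl and sgNSD3 (SD, n = 3 each).

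The relatives Zfp518a and Zfp518b, which associate with the H3K9 methyltransferase G9a, again changed in opposite directions. Zfp518a was at 380.2, 445 and 487 in sgControl and at 575, 598 and 533 in sgNSD3, a 1.30-fold rise (limma adjusted p = 0.00069). Zfp518b was at 2136, 2113 and 2194 in sgControl and at 1865, 1853 and 1967 in sgNSD3, a 1.13-fold fall (limma adjusted p = 0.00135). Their ratio was 0.178 to 0.222 in sgControl and 0.271 to 0.323 in sgNSD3, again a pair chosen after its values were seen. Zfp462 and Zfp644, which also associate with G9a, were not called (limma adjusted p = 0.295 and 0.298).

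Among the members listed for mesenchymal and adipose lineages, Zfp423, Zfp521 and Zfp750 were called, of which Zfp750 is known from the epidermis instead. Zfp423, which promotes the commitment of preadipocytes, was at 12.5, 17.2 and 16.2 normalized counts in sgControl and at 5.17, 3.84 and 4.89 in sgNSD3. This was the largest fold among the called members, a 3.31-fold fall with a log2 fold of -1.53 ± 0.35 (SE, limma adjusted p = 0.00372), and it rests on few reads. Zfp521, a close relative known to oppose the adipogenic factor Ebf1, fell 1.14-fold, from 800.1, 764 and 767 to 702, 672 and 666 (limma adjusted p = 0.0123), a call lost without sgNSD3 replicate 2 or 3. Zfp750, a factor of epidermal differentiation, was low throughout, at 14.6, 14.4 and 19.3 in sgControl and 30.0, 25.9 and 29.3 in sgNSD3, 1.77-fold higher (limma adjusted p = 0.0333). Its call was lost without 5 of the 6 libraries in turn. Of the other epidermal markers, Krt14 was lower in sgNSD3, as given above, Trp63 was under the minimum (1.03 and 3.95 normalized counts on average) and Krt5 was at or near 0 in every library. The other 4 tested members of that list were not called, with Zfp516, a promoter of brown fat, at 2496 ± 17.9 and 2536 ± 76.8 (SD, n = 3 each). The list as written also holds Zfp469, which has no gene-body row, and which was 1.15-fold higher in sgNSD3 (limma adjusted p = 0.000108).

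Of the members that silence imprinted genes or retroelements, 7 were tested, 1 was lower and 0 were higher. Zfp809, a KRAB protein that silences proviruses, was at 1262, 1277 and 1366 normalized counts in sgControl and at 1182, 1143 and 1130.1 in sgNSD3, a 1.13-fold fall (limma adjusted p = 0.00762, lost without sgNSD3 replicate 3). The imprinting factors Zfp57 and Zfp445 were not called, at 990.2 ± 59.2 and 981 ± 6.01 for Zfp57 and at 1324 ± 64.0 and 1424 ± 40.5 for Zfp445 (SD, n = 3 each, limma adjusted p = 0.916 and 0.119). Zfp568, which silences a placental transcript of Igf2, was at 914 ± 46.8 and 891 ± 62.0. In the whole list of 16 genes, of which 8 were tested, 2 were higher and 2 lower at an unadjusted p of 0.05.

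Of 23 tested genes of the list of KRAB corepressor and H3K9 machinery, 1 was called (4.35%, against 11.9% of all tested genes). That list, named the KRAB corepressor list below, also holds DNA methyltransferases and chromatin remodellers. The called gene was Atrx, a chromatin remodeller of heterochromatin, which was higher, from 2730.5, 2669.9 and 2811 to 3179.9, 3103 and 3126 (1.15-fold, limma adjusted p = 0.000165). None was lower, also at an unadjusted p of 0.05, where limma gave 0 lower and 3 higher. Trim28 was at 6273 ± 311 and 6345 ± 165 (SD, n = 3 each, limma adjusted p = 0.811), with overlap. Setdb1 was at 792 ± 52.0 and 840.1 ± 19.2 (limma adjusted p = 0.324). Of 12 tested H3K36 methyltransferases and demethylases, 3 were higher (25%, against 5.44% of all tested genes) and 0 lower, at an unadjusted p of 0.05 as well: the targeted gene Nsd3 itself, Ash1l (1.09-fold) and Nsd1 (1.07-fold). Without sgControl replicate 2, or without any 1 sgNSD3 replicate, 1 higher call was made in that list.

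The housekeeping and promoter-binding members gave no call in 11 tested, and in the list of 12, limma gave 2 lower and 0 higher at an unadjusted p of 0.05. Zfp143, whose known site matches the promoter motif, was at 225, 230 and 249 normalized counts in sgControl and 204, 211 and 223 in sgNSD3 (limma adjusted p = 0.343). Zfp207, a kinetochore and spindle protein, was at 4296 ± 244 and 4173 ± 83.0, and Zfp91, a ubiquitin ligase, at 3526 ± 118 and 3471 ± 69.9 (SD, n = 3 each). Of 6 tested members acting in ribosome quality control, SUMO and ubiquitin pathways, Zfp451, a SUMO ligase, was the 1 called, at 1822, 1943 and 1955 in sgControl and 2047, 2031 and 2119 in sgNSD3 (1.08-fold higher, limma adjusted p = 0.0443). That call was lost without 5 of the 6 libraries in turn.

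The remaining 8 called members have names by number and no list. Zfp275 fell 1.13-fold, from 2343, 2472 and 2402 to 2158, 2126 and 2075 (limma adjusted p = 0.000802). Zfp618, known as a partner of Uhrf2, fell 1.39-fold, from 192, 196 and 169 to 138, 123 and 141 (limma adjusted p = 0.00323). Both kept their calls when each library was left out in turn. Zfp709 rose 1.69-fold, from 41.8, 42.1 and 32.5 to 56.8, 74.8 and 64.5 (limma adjusted p = 0.00569), a call lost without sgNSD3 replicate 2 (adjusted p = 0.054). The other 5 lay near the threshold, with limma adjusted p from 0.0364 to 0.0475, and lost their calls without at least 4 of the 6 libraries in turn. They were Zfp280d (1.12-fold) and Zfp866 (1.22-fold), both higher, and Zfp647 (1.43-fold), Zfp11 (1.32-fold) and Zfp664 (1.09-fold), all lower.

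**Figure D3:**
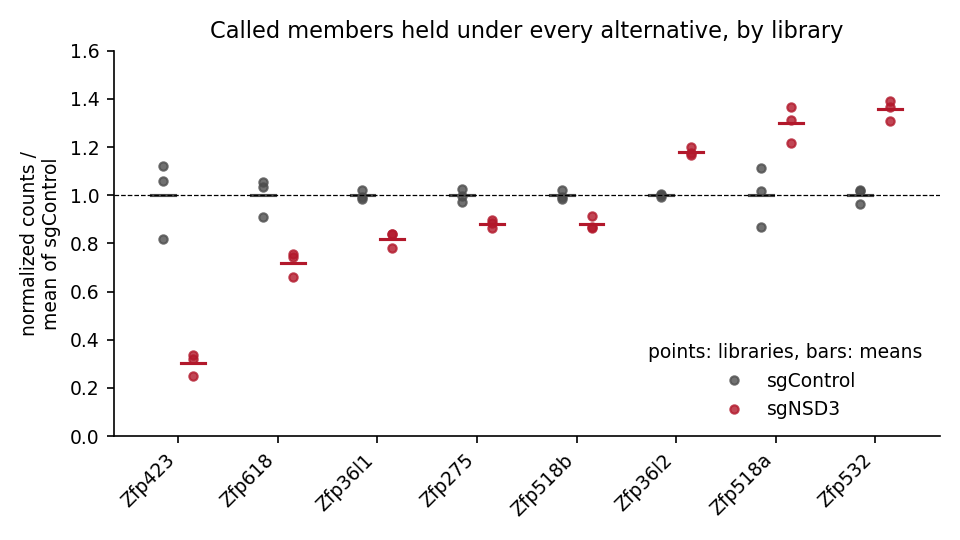
Normalized counts of each library divided by the mean of the 3 sgControl libraries (vertical axis, linear from 0) for the 8 called members whose calls held under every alternative that gave a value. Points are libraries and bars are means of 3, and in none of the 8 do the conditions overlap.

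In genomic runs, 2 of 141 tested members were called (1.42%), Zfp866 on chromosome 8 and Zfp809 on chromosome 9. Among the other 176 tested members 16 were called (9.09%), against 11.9% of all tested genes, which include genes without a gene-body score. Of the 12298 other gene bodies with tested RNA, 789 were called higher and 1021 lower. None of the 49 tested members with the promoter motif was called by limma, with 4 lower and 0 higher at an unadjusted p of 0.05. Of the 51 members with the motif, 41 lay in runs. Their median level was 100 normalized counts, against 157 for members whose promoter lacked the motif, so nothing particular to the motif is read from this. Members in runs had a median of 121 normalized counts and members outside them 187, so the groups also differed in depth. In the chromosome 13 run, 0 of 18 tested members were called (limma; 5 at an unadjusted p of 0.05), and mean RNA ran from 0 (Zfp640) to 325 normalized counts. In the larger run of chromosome 17, 0 of 20 were called (limma; 4 at an unadjusted p of 0.05), and mean RNA ran from 28.6 to 396. Reads from near-identical neighbours such as Zfp874a and Zfp874b may be split or lost in counting, so the RNA levels of run members are uncertain.

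The chromatin values are signed scores in 3 columns, 2 for H3K36me2 and 1 for H3K27me3. Which libraries each column sets against each other, in which order, and what 0 stands for are not given in the sources used here, so a sign was read only as a sign and no direction between the conditions was drawn. With 1 value per gene body and column there is no replicate and no test. The authors' deposited table held the same exact score for several gene bodies in many places. For H3K27me3, 33.5% of members shared their score with another gene body, and -0.0476 stood at 13 members and 300 gene bodies in all.

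Taken over all levels of RNA, the H3K36me2 scores of the members lay close to those of gene bodies at large, but not in every RNA class. In the authors' deposited table, 90.8% of the 358 members lay above 0 in column 1 and 97.5% in column 2, against 89.4% and 92.4% of all gene bodies. For column 1 the order depended on the gene bodies compared, since 91.3% of all lay above 0 without those at 0 in every column and 92.2% without mitochondrial and predicted genes. For column 2 these shares were 94.3% and 95.2%. The members' medians in the authors' deposited table were 0.0699 and 0.121, against 0.0757 and 0.125 over all gene bodies. From 8 to 77.8 counts, column 1 medians were 0.0527 in members and 0.0775 in other gene bodies. Of these, 82.3% and 93.3% lay above 0. From 77.8 to 183 counts the medians were 0.0662 and 0.0775, with 94.9% and 93.6% above 0. Above 183 counts they were nearly equal, and under 8 counts the members' was higher, 0.0730 against 0.0643. Column 2 medians were 0.113 and 0.134 from 8 to 77.8 counts, and 0.155 and 0.142, the reverse order, above 503. Both columns were above 0 in 318 members and below 0 in 2, Zfp36l3 and Zfp345. The columns ordered the members only weakly alike, with a Spearman rho of 0.17 over 358 members and 0.22 over the 22112 other gene bodies, where neighbouring genes are not independent.

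For H3K27me3 the order of members and other gene bodies depended on whether genes with little RNA were counted. In the authors' deposited table, 80 members (22.3%) were above 0, against 31.5% of all gene bodies. Among those with tested RNA it was 70 of 317 members (22.1%) against 2211 of 12298 others (18.0%), the reverse order. Of gene bodies with an RNA row, 36 of 353 members but 8469 other gene bodies were under the minimum of 8 normalized counts. The medians in the authors' deposited table were nearly equal, at -0.0276 and -0.0258. The members' scores spanned a narrower range, with 5th and 95th percentiles of -0.131 and 0.0838, against -0.150 and 0.148 in the other gene bodies. Among families named differently, 5 of 40 Zbtb gene bodies (12.5%) and 10 of 28 Zkscan and Zscan gene bodies (35.7%) were above 0 in the authors' deposited table.

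**Figure D4:**
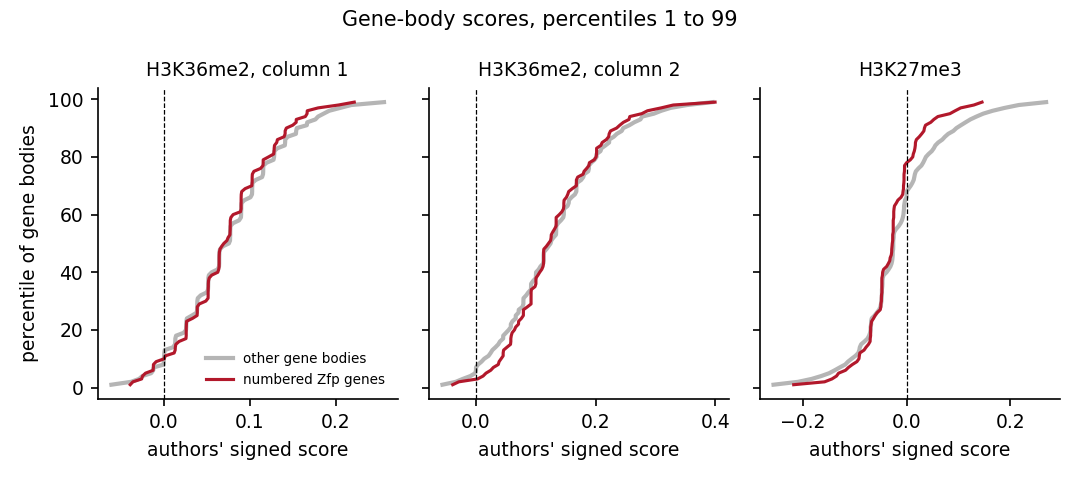
Percentiles 1 to 99 of the authors' signed scores (horizontal axis) in each of the 3 columns, for the 358 members and the 22112 other gene bodies. The curves lie close together for H3K36me2, and for H3K27me3 the members' curve is steeper, from -0.131 at percentile 5 to 0.0838 at percentile 95, against -0.150 and 0.148.

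Set beside genes of like RNA, the share of members with a positive H3K27me3 score was farthest from that of other gene bodies where RNA was lowest. Of 36 members with an RNA row under 8 normalized counts, 10 (27.8%) were above 0 in the authors' deposited table, against 51.4% of the 8469 other gene bodies with so little RNA. In the next class, 8 to 77.8 counts, it was 29 of 79 members (36.7%) against 28.1%, the reverse order, and from 77.8 to 183 counts it was 22 of 79 (27.8%) against 21.4%, also reversed. From 183 to 503 counts it was 13.9% against 18.2%, and above 503 counts 10% of 80 members against 12.7%. Members under the minimum were not quite like the other genes there, with a median of 0.511 normalized counts against 0, and a median of 9 CG dinucleotides per promoter window against 3. What part these differences play was not tested.

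**Figure D5:**
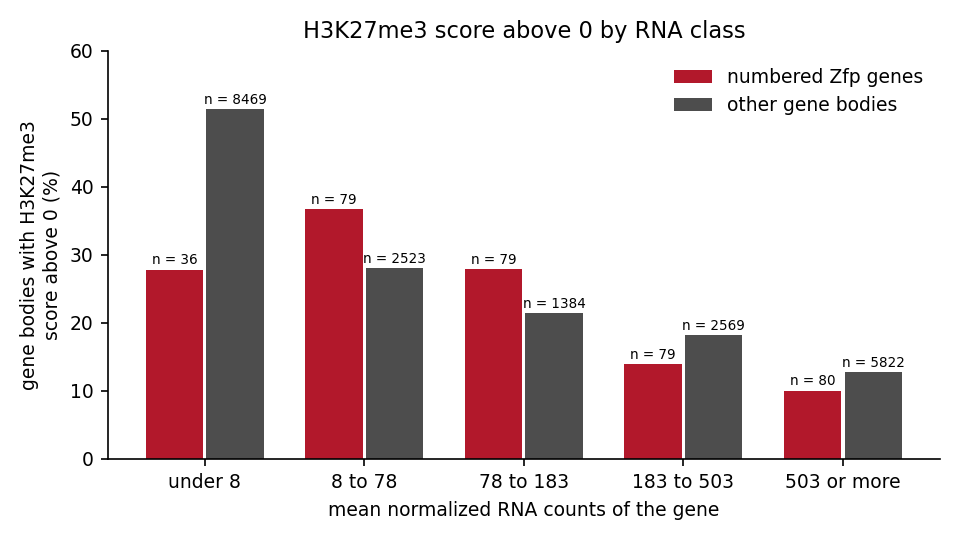
Share of gene bodies with a positive H3K27me3 score in percent (vertical axis, from 0) by the mean normalized RNA counts of the gene (horizontal axis), for members and other gene bodies, with the number of gene bodies above each bar. Members stand at 27.8% and others at 51.4% in the lowest class, the members' bar is the higher one in the next 2 classes, and the bars are closer in all 4 classes above the lowest.

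The highest H3K36me2 scores among members, by the mean of both columns, belonged to Zfp365, Zfp341, Zfp810, Zfp827, Zfp36l2, Zfp68, Zfp612 and Zfp605. In the authors' deposited table Zfp365 stood at 0.142 and 0.519 and Zfp827 at 0.0519 and 0.531, so column 2 set their rank. Zfp68, at 0.244 and 0.278 in the authors' deposited table, was high in both. Of these 8, only Zfp36l2 was called in RNA. Among members with the same sign in both columns, the lowest were Zfp36l3, Zfp345, Zfp120, Zfp511, Zfp640, Zfp110, Zfp870 and Zfp287. Some members with opposite signs had means below most of these. Zfp433, at 0.0129 and -0.0338 in the authors' deposited table, had a mean of -0.0105, against 0.00645 for Zfp120. In the authors' deposited table Zfp36l3 was at -0.0407 and -0.0511 and Zfp345 at -0.0123 and -0.0304. Zfp36l3 and Zfp640 had no RNA reads, whereas Zfp110 had a mean of 523 normalized counts in sgControl, so a low score went with both silent and transcribed members.

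For H3K27me3 the highest scores in the authors' deposited table were 0.240 for Zfp54, 0.226 for Zfp800, 0.204 for Zfp764, 0.152 for Zfp946 and 0.141 for Zfp605. The lowest scores in the authors' deposited table were -0.293 for Zfp41, -0.276 for Zfp541, -0.231 for Zfp653, -0.225 for Zfp512 and -0.213 for Zfp874a. Both ends held transcribed members, as Zfp800 had 276 and Zfp512 had 474 normalized counts on average in sgControl. Zfp541, at the low end, was nearly silent, at 1.04, 1.91 and 1.01 in sgControl and 0 in every sgNSD3 library. None of the 9 tested among these 10 was called in RNA.

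Runs of neighbours differed from each other in the share of members with a positive H3K27me3 score. In the chromosome 17 run that holds Zfp54 and Zfp946, 10 of 20 members were above 0 in the authors' deposited table, with a median of 0.00165 and a range of -0.0744 to 0.240. In the chromosome 13 run it was 3 of 20, with a median of -0.0300 in the authors' deposited table, and in the chromosome 7 runs of 14 members it was 2 of 14 at chr7:24081877-25227876 and 1 of 14 at chr7:29768552-30169775. Among the smaller runs, the one at chr7:12412549-12985717 had 4 of 7 above 0, with a median of 0.0120 in the authors' deposited table. Medians of H3K36me2 in the 4 largest runs, in the order given, were 0.0581, 0.0675, 0.0645 and 0.0262 in column 1 and 0.113, 0.119, 0.111 and 0.125 in column 2 of the authors' deposited table. Members with the promoter motif had positive H3K27me3 scores in 10 of 51 cases (19.6%) and those without it in 60 of 242 (24.8%). The 4 largest runs were taken by size and the smaller one after its score was seen, and neighbouring gene bodies are not independent.

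For H3K27me3, 1 of the 18 called members (5.56%) had a positive score in the authors' deposited table, Zfp423 at 0.0351, against 69 of 299 tested members not called (23.1%), with no test. These groups also differed in RNA level, with medians of 757 and 181 normalized counts. Among all members above 503 counts, 10% of 80 had a positive score. The part of RNA level in the difference was not tested. In the authors' deposited table the medians of the called members were 0.0702 and 0.118 for H3K36me2 and -0.0390 for H3K27me3, against 0.0708, 0.125 and -0.0268 in the 299 tested members not called. For the 8 members higher in RNA the medians of H3K36me2 in the authors' deposited table were 0.0830 and 0.131, and for the 10 lower 0.0698 and 0.0890. Zfp518b was the 1 called member with a negative score for H3K36me2, -0.0361 in column 1 of the authors' deposited table. Over the 317 tested members, Spearman's rho between the log2 fold in RNA and the mean H3K36me2 score was 0.02, and with the H3K27me3 score it was 0.10, given as a description over genes that share libraries. Over the 12298 other gene bodies with tested RNA, the same values were 0.01 and 0.05.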

How the data were processed

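Members were taken by symbol, and members and gene lists were chosen with earlier results of these data known. The planned classes by KRAB motif and finger number were not analysed here. The promoter motif search and the printed windows replaced the planned promoters and were chosen after the files were seen.

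The submitters' processing notes name HISAT2, featureCounts, DESeq2 and the mm10 build; versions, settings and the treatment of reads that match several places are not given in the sources used here. The RNA values deposited by the authors are log2 values on a variance-stabilised scale with 0 reads at 8.45. Its closed form was inverted to normalized counts, which were whole multiples of 1 step per library, within 0.05, for 100% of the values. The authors deposited signed scores for chromatin, per gene body, and 0 other value columns were present. No IgG library value was used here. 1 IgG sample has a title of sgNSD3 but a source of sgControl.

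The test for RNA was that of limma 3.58.1 under R 4.3.3 (lmFit, eBayes with a trend, Benjamini-Hochberg over 18263 genes with a mean of at least 8 normalized counts, threshold 0.05). A fold is a ratio of mean normalized counts. Log2 folds and their errors come from log2(normalized count + 1), which understates low genes. Replicates were numbered by title. Named genes were called members, those with the most RNA and those at each end of the scores, by a rule that takes up to 12 changes each way at a minimum of 32 normalized counts and every called list member. All 18 called members were named. Zfp423 and Zfp750, under that minimum, came in through their list. Alternatives were the filter, the scale, quantile normalization, the trend, the replicate block and each library left out. RefSeq tables of GRCm38.p6 gave positions and promoters.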

Additional observations from a re-analysis of the deposited data

How the results depend on the processing

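The 8 members Zfp275, Zfp36l1, Zfp36l2, Zfp423, Zfp518a, Zfp518b, Zfp532 and Zfp618 kept their calls under every alternative that gave a value, and the highest limma adjusted p among them was 0.0355. The other 10 called members lost theirs under at least 1 of 13 alternatives, and none reversed. Without a filter on low values, 4 members were called higher and 7 lower. Leaving out 1 library at a time gave 3 to 13 higher and 5 to 12 lower calls, 1 to 2 higher calls in the KRAB corepressor list and 1 to 3 in the H3K36 list, with fewer samples in each such fit. Quantile normalization gave 2 higher calls in the KRAB corepressor list, and a fit with no trend gave 1 in the H3K36 list, where the cause was not tested.

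With the replicate number as a block, 12 members were called higher and 11 lower. Same-numbered libraries did not deviate together (correlations of 0.05, 0.02 and -0.01), so the numbers were not taken as a pairing. The shares of members above 0 in the chromatin columns stayed within their counting interval when members without tested RNA, symbols with letters after the number or, an alternative chosen after seeing the data, members in genomic runs were left out. Each such subset holds most of the same members, and the interval treats neighbouring gene bodies as independent. The shares could therefore hardly have left it, and nothing is concluded from this. Some shares over all gene bodies moved beyond their counting interval, as given beside the members' shares. Counts near the minimum, as for Zfp423, limit what the depth can show.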
